A study of Mus musculus with 24 samples.

Results

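The genes described here are 29 members of the cholesterol synthesis pathway and of the SREBP2 system that controls it. They were chosen by name as a pathway list, with earlier results of these data known. The shares of all genes set beside their counts below are therefore no independent test. Each of the 29 names was found once among the 54532 genes of the table of FPKM (fragments per kilobase of gene scaled to library size, a level per gene length). Of the members, 6 act up to and around mevalonate, 3 make isoprenoids, 3 make squalene and its cyclised product lanosterol, 9 act after lanosterol, 6 sense sterols or process SREBP2, and 2 carry or bind sterols. RNA was sequenced from whole liver, 50 mg a sample, and from inguinal white adipose tissue (iWAT), 100 mg a sample with the lymph nodes taken out. The mice were labelled WT or Mrs2 KO, Mrs2 being a magnesium channel of the inner mitochondrial membrane, and ate standard chow or a Western diet (WD) for 52 weeks from 13 weeks of age. The 24 libraries form 8 groups of 3: WT and KO, on chow and on WD, in liver and in iWAT. The kind of Mrs2 allele, the fat and cholesterol content of the diets, and whether the libraries of a group came from separate animals were not stated in what was used here, so p-values measure only the spread between these libraries, which may be technical.

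Cells build cholesterol from acetyl-CoA by way of mevalonate, isoprenoid units, squalene and lanosterol, and the last steps trim and rearrange the lanosterol ring system. SREBP2, the product of Srebf2, is held in the endoplasmic reticulum with SCAP. When sterols are scarce SCAP carries it to the Golgi, the proteases of Mbtps1 and Mbtps2 release its active part, and genes of the pathway are switched on. When sterols are plentiful the INSIG proteins hold SCAP back, and in liver, which makes much of the body's cholesterol and also takes it up from food, this feedback is the textbook example of a gene programme set by diet.

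The libraries held 14.7 to 19.5 M reads in liver and 15.4 to 20.4 M in iWAT, and reads of the 29 members made up 0.306 to 0.670% of a chow liver library, 0.150 to 0.247% of a WD liver library and 0.154 to 0.282% of an iWAT library. Tissue labels fitted the markers: albumin (Alb) was at 15165 to 57310 FPKM in liver and 10.7 to 32.7 in iWAT, and adiponectin (Adipoq) at 0.113 to 1.12 in liver and 826 to 1458 in iWAT. Mrs2 was lower in KO than in WT without overlap in chow liver and in iWAT on both diets, but in WD liver it was at 5.10, 4.10 and 5.11 FPKM in the libraries labelled WT and 4.10, 5.21 and 4.21 in those labelled KO, so the labels stand unchecked there and directions between WD livers are between labels. The WD livers labelled WT stood apart in cell markers. Their summed level of 14 hepatocyte markers was 34409.8 to 41512 FPKM, against 63925 to 94372 in WT chow livers and 43431 to 51024 in KO WD livers. For 12 macrophage markers the sums were 641 to 1539, 201 to 441 and 285 to 359 FPKM in the same order, and for 11 fibroblast and stellate cell markers 155 to 249, 50.8 to 82.5 and 55.2 to 62.1, with no marker of the 3 lists below 0.1 FPKM throughout any of these groups. Pancreatic acinar markers summed to 2010.4 FPKM in KO chow liver replicate 1 and 1450.4 in WT WD liver replicate 2. They summed to at most 1.06 in the WT chow and KO WD livers. Skeletal muscle markers summed to 151 FPKM in WT chow liver replicate 3, against 0.592 and 0.313 in replicates 1 and 2. They reached 67.7 in KO WD liver replicate 2 and 22.5 in KO chow liver replicate 2. Red cell markers summed to 1172 FPKM in WT WD liver replicate 1, against 211 to 567 in the other livers. The part of these tissues in the results was not tested. In whole-tissue RNA a lower level of a gene can mean fewer cells of a type or less RNA per cell, and these cannot be told apart here.

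The DNA before the start sites is shown for 6 members, because the members moved together in liver and SREBP2 is known to bind near start sites beside general factors. The sequences are RefSeq's, build GRCm38.p6, 5′ to 3′ on the strand of the gene, each the 250 bases before the RefSeq start site, except that the Mvk stretch stops at the neighbouring gene Mmab and that Insig2, with 3 start sites in the table, is shown at the one farthest upstream. Capitals mark matches, on either strand, to the core of the sterol regulatory element (CACNCCAC), the E-box (CACGTG), the inverted CCAAT box (ATTGG) and the GC box (GGGCGG). Hmgcs1 and Insig1 are shown for the sterol element, Mvk for its row of CCAAT boxes, Idi1 as one of the members that fell most on WD, Tm7sf2 as a member that also differed between the genotype labels, and Insig2 as a member with no fall.
Hmgcs1, chr13:119690101-119690350, plus strand: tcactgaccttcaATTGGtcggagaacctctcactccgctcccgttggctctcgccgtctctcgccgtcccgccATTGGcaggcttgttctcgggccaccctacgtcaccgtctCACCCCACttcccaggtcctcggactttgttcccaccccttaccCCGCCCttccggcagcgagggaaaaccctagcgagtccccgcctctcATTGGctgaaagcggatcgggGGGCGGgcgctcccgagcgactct
Insig1, chr5:28071162-28071411, plus strand: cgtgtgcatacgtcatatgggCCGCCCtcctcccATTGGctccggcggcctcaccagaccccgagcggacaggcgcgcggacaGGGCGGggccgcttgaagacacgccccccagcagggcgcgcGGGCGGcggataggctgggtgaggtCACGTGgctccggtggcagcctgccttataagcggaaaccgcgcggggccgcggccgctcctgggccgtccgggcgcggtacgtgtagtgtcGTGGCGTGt
Mvk, chr5:114444061-114444268, plus strand: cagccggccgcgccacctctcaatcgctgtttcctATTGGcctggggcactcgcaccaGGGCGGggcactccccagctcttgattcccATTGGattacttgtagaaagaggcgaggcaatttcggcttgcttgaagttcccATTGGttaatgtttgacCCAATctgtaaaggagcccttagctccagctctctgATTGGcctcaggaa
Idi1, chr13:8885356-8885605, plus strand: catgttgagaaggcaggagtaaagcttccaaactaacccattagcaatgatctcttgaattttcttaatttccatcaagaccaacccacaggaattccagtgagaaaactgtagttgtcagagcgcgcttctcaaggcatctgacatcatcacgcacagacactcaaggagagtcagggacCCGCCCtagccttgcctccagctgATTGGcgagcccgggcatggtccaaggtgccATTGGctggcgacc
Tm7sf2, chr19:6067851-6068100, minus strand: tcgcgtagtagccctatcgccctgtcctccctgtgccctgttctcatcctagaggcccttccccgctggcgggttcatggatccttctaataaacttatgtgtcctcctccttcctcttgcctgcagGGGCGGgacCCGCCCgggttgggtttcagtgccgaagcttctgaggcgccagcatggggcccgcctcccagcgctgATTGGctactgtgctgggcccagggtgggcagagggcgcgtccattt
Insig2, chr1:121332590-121332839, minus strand: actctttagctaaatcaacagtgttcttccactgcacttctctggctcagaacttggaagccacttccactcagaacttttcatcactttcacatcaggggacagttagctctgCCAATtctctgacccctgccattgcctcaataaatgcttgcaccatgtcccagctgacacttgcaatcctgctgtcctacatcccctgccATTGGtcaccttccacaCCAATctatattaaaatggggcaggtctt

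Hmgcs1 had 1 match to the sterol element core, starting 136 bases before the start site, and Insig1 had 1 that started 9 bases before it together with an E-box. The Mvk stretch, the 208 bases between Mvk and Mmab, which runs the opposite way, held 5 CCAAT matches. Insig2, with no fall on WD, had 3 CCAAT matches in the stretch shown and 0 in the windows of its 2 other start sites in the table. Over the full windows of 300 bases, 50 of them after the start site, 25 members had an entry. The sterol element core was found in 3 of the 25 (Acat2, Hmgcs1 and Insig1), against 7.12% of all 27025 genes and 6.24% of all 32851 promoters, and the longer form TCACNCCAC in Hmgcs1 alone, against 1.44% of genes and 1.24% of promoters, the core being a part of the longer form. An E-box was in 5 members, against 8.09% of genes and 7.15% of promoters. A CCAAT box was in 20, against 41.1% and 37.4%, and a GC box in 21, against 38.2% and 35.7%. Genes with more than 1 window, 4 of the 25 members among them, were counted once when any window matched. A match is a stretch of letters and was not tested as a binding site.

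In WT mice on chow most of the pathway was higher in liver than in iWAT. Of the 29 members 23 were higher in liver and 1 was lower at an adjusted p under 0.05 (limma, Benjamini-Hochberg over all genes tested), where 32.5% and 31.5% of all genes were called in those directions. The median difference over the members was 1.94 on the log2(FPKM + 1) scale, against -0.0034 over all genes. Insig1, which encodes a retention factor for SCAP, was the most abundant member by mean FPKM in chow liver, at 277, 151 and 179.8 FPKM in WT. Sc5d, the sterol C5-desaturase, and Ebp, the sterol Δ8-Δ7 isomerase, were at 253, 87.5 and 115 and at 121, 82.1 and 96.4 FPKM, and the spread of Insig1, Sc5d and Hmgcs1 overlapped, so these libraries do not set their order. At the low end of the liver order stood Mbtps2, the site-2 protease, at 1.39 to 1.83 FPKM and Ggps1, the geranylgeranyl diphosphate synthase, at 2.26 to 2.80.

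The order of the members differed in iWAT. Aacs, acetoacetyl-CoA synthetase, which makes the precursor from ketone bodies in the cytosol, was at 77.7, 149 and 68.3 FPKM in WT on chow and Insig1 at 80.6, 149.7 and 61.5, the 2 highest members, whose values overlapped and set no order between them. Acat2, the cytosolic acetoacetyl-CoA thiolase, came next by mean at 25.2, 42.98 and 22.6. The median difference between the tissues was 3.16 over the 9 genes after lanosterol and 3.74 over the 2 transport genes, against 0.74 over the 6 mevalonate genes. Tm7sf2, a sterol C14-reductase (ENSMUSG00000024799, chr19:6062821-6077197, minus strand, mm10), was at 35.8, 27.7 and 36.4 FPKM in liver and 1.49, 1.34 and 1.14 in iWAT. In the GENCODE annotation Tm7sf2 has 4403 exonic bases and shares 12.1% of them with Vps51 on the same strand. The deposited length of Tm7sf2 is 5593 bases, so the shared part of the gene as counted is not known. Lbr, a lamin B receptor with the same reductase activity (ENSMUSG00000004880, chr1:181815335-181843046, minus strand), was at 4.24, 4.22 and 4.10 FPKM in liver and 4.39, 4.88 and 7.99 in iWAT. The ratio of Tm7sf2 to Lbr was therefore 6.57 to 8.86 in WT chow liver and 0.143 to 0.338 in iWAT, without overlap. Ggps1 was the member called higher in iWAT, at 4.25 to 5.66 FPKM (adjusted p = 5.58e-05 in limma). With reads scaled to the library total in place of the deposited scaling the split was 17 higher and 5 lower, and the median over all genes moved to -0.62. The differences of Mbtps1, Mbtps2, Srebf2, Pmvk and Mvk then turned to lower in liver.

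**Figure D1:**
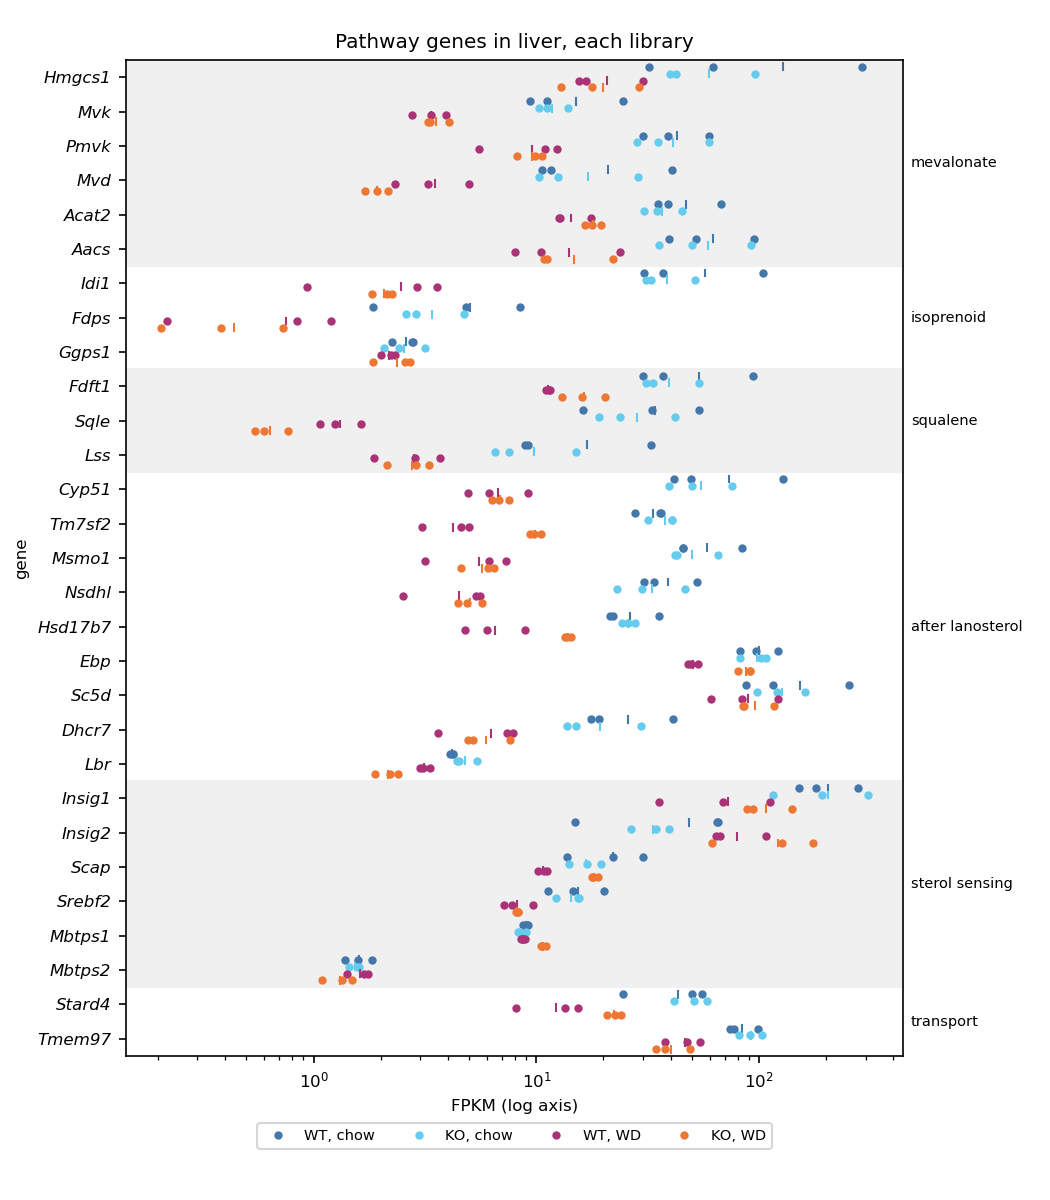
FPKM of each of the 29 members in the 12 liver libraries, on a log axis; points are libraries, short bars are group means, and colours are the 4 groups. Most genes up to and after lanosterol sit several-fold lower in both WD groups than in both chow groups, while Insig2, Ggps1, Mbtps1 and Mbtps2 do not.

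Most of the pathway was lower on WD in the livers labelled WT. Of the 29 members 23 fell and none rose, where 9.49% of all genes tested fell and 9.72% rose. The median change over the members was -1.77 on the log2(FPKM + 1) scale, against -0.05 over all genes. In 24 members every WD liver was below every WT chow liver, against 19.2% of all genes. By role, 5 of 6 mevalonate genes fell, 2 of 3 isoprenoid genes, 3 of 3 squalene and lanosterol genes, 8 of 9 genes after lanosterol, 3 of 6 sensing and processing genes and 2 of 2 transport genes. The members not called were Hmgcs1, Ggps1, Sc5d, Insig2, Mbtps1 and Mbtps2.

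Among the genes of the mevalonate stretch, Hmgcs1, which makes HMG-CoA in the cytosol (ENSMUSG00000093930, chr13:119690379-119708260, plus strand), was at 289.9, 62.3 and 32.1 FPKM in WT chow livers and 15.6, 30.1 and 16.6 in WT WD livers. All WD values were below all chow values, but chow replicate 1 was more than 4 times either other chow library, and the difference of -2.02 ± 0.69 (SE) did not pass (adjusted p = 0.0658). Mvk, mevalonate kinase, went from 24.4, 11.1 and 9.37 to 3.93, 3.36 and 2.77 FPKM and fell by 1.77 ± 0.28 (SE) on the log2 scale (adjusted p = 0.00308). Pmvk, phosphomevalonate kinase, was at 59.4, 30.2 and 38.9 and 10.9, 12.3 and 5.52 FPKM and fell by 2.06 ± 0.34 (SE) (adjusted p = 0.00375). The groups did not overlap in either kinase. Mvd, the decarboxylase that follows them, was at 40.8, 11.6 and 10.6 and 3.25, 4.998 and 2.33 FPKM and fell by 2.06 ± 0.49 (SE). The side-branch enzymes moved too: Acat2 fell by 1.61 ± 0.24 (SE) and Aacs by 2.11 ± 0.48 (SE). Acat2 has a near-identical neighbouring copy, Acat3, and reads of one could have been counted on the other.

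The falls of Idi1 and Sqle, enzymes before and after squalene, were the largest of the 29 on this scale. Sqle, squalene epoxidase (ENSMUSG00000022351, chr15:59315077-59331192, plus strand), a rate-controlling enzyme of the later pathway, was at 53.6, 32.9 and 16.2 FPKM in WT chow livers and 1.63, 1.25 and 1.07 in WT WD livers. It fell by 3.78 ± 0.38 (SE) on the log2(FPKM + 1) scale (adjusted p = 0.000387), a scale that understates the change of a gene this low. Idi1, the isopentenyl diphosphate isomerase (ENSMUSG00000058258, chr13:8885501-8892451, plus strand), went from 104, 37.1 and 30.6 to 2.91, 3.59 and 0.935 FPKM and fell by 3.94 ± 0.44 (SE) (adjusted p = 0.000727). In both genes the lowest chow liver was more than 8 times the highest WD liver. Fdft1, squalene synthase, was at 93.97, 30.1 and 37.2 FPKM on chow and 11.01, 11.4 and 11.5 on WD and fell by 1.97 ± 0.37 (SE). Lss, lanosterol synthase, was at 32.6, 8.92 and 9.20 and 2.86, 3.71 and 1.87 FPKM and fell by 2.01 ± 0.45 (SE). Fdft1 shares 774 exonic bases, 18.3% of its length, with Ctsb on the opposite strand, and Ctsb went the other way (108 to 117 FPKM in WT chow and 192 to 276 in WT WD livers); whether the counting used strand was not stated, and reads of the overlap cannot be assigned. Fdps, farnesyl diphosphate synthase, was listed at only 1.84 to 8.40 FPKM in WT chow livers and fell by 1.66 ± 0.39 (SE). It shares 26.7% of its exonic bases with an overlapping gene model on the same strand, and its level is uncertain. Ggps1, which leads isoprenoids away from sterols, was at 2.26 to 2.80 FPKM on chow and 2.01 to 2.32 on WD, with overlap.

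After lanosterol the falls differed in size between steps. Cyp51, the lanosterol 14-demethylase, was at 128, 41.5 and 49.6 FPKM in WT chow and 6.10, 9.18 and 4.96 in WT WD livers, a fall of 3.11 ± 0.39 (SE) (adjusted p = 0.00114). Msmo1, the C4-methyl oxidase, went from 83.6, 45.6 and 45.6 to 6.11, 7.27 and 3.16 FPKM and fell by 3.18 ± 0.31 (SE) (adjusted p = 0.000327). Its partner in removing the C4 methyl groups, Nsdhl, went from 52.6, 33.8 and 30.4 to 5.58, 5.38 and 2.51 FPKM and fell by 2.88 ± 0.31 (SE) (adjusted p = 0.000529). These 3 enzymes had no overlap between diets. Tm7sf2 was at 4.61, 4.97 and 3.06 FPKM in WT WD livers, a fall of 2.73 ± 0.16 (SE) (adjusted p = 3.82e-05), the smallest adjusted p among the members here. Hsd17b7, the 3-ketosteroid reductase of C4 demethylation, fell by 1.86 ± 0.21 (SE) and Dhcr7, the last enzyme of one branch, by 1.84 ± 0.38 (SE). Ebp fell less, by 0.96 ± 0.15 (SE), from 121, 82.1 and 96.4 to 49.5, 53.3 and 47.9 FPKM. Lbr fell by 0.33 ± 0.09 (SE) (adjusted p = 0.0341), a call that ended without any 1 of the 6 libraries, and Sc5d, at 83.7, 122 and 60.9 FPKM in WT WD livers, overlapped its chow values.

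Members of the sensing system did not move as a block. Insig1 (ENSMUSG00000045294, chr5:28071363-28078662, plus strand) was at 68.8, 112 and 35.4 FPKM in WT WD livers, all below its chow values, and fell by 1.58 ± 0.45 (SE) (adjusted p = 0.034). The call held in 2 of the 6 runs that left out 1 library, ending without WT chow replicate 1 or 3 or WT WD replicate 1 or 3, and in 5 of 11 other settings. Insig2, the second retention factor, whose liver transcript is known to follow insulin and feeding rather than SREBP2 (ENSMUSG00000003721, chr1:121304353-121332589, minus strand), was at 65.1, 64.7 and 14.9 FPKM on chow and 64.3, 108 and 66.97 on WD, with overlap and a difference of 0.93 ± 0.54 (SE) (adjusted p = 0.257). The ratio of Insig1 to Insig2 was 2.33 to 12.04 in WT chow livers and 0.529 to 1.07 in WT WD livers, without overlap. Srebf2 itself went from 20.1, 14.6 and 11.2 to 7.77, 9.67 and 7.13 FPKM and fell by 0.80 ± 0.18 (SE) (adjusted p = 0.0137). Scap went from 30.2, 13.7 and 22.04 to 10.2, 11.2 and 10.8 FPKM and fell by 0.91 ± 0.22 (SE) (adjusted p = 0.019). The proteases overlapped between diets, Mbtps1 at 8.67 to 9.16 and 8.53 to 8.88 FPKM and Mbtps2 at 1.39 to 1.83 and 1.41 to 1.76. Of the carriers, Stard4, a cytosolic cholesterol transfer protein, fell by 1.70 ± 0.30 (SE) and Tmem97, the sigma-2 receptor, which binds the lysosomal cholesterol transporter Npc1, by 0.83 ± 0.18 (SE).

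The count held between 19 and 23 members lower under every other scaling, filter and count test run except centring on hepatocyte markers and a fit of only these 2 groups, which called 12. Centred on the hepatocyte markers, whose level also fell in these livers, 16 members were lower and 5 were higher (median change of all genes 0.81, of the members -0.90). WT chow replicate 1 was the highest of the 12 livers in 18 members and WT WD replicate 3 the lowest in 16. Without WT chow replicate 1 the count was 21, without WT WD replicate 3 it was 15, and without WT WD replicate 2, which carried the pancreatic markers, it was 22. The 15 members called in each of the 6 runs that left out 1 library were Mvk, Pmvk, Acat2, Idi1, Fdft1, Sqle, Cyp51, Tm7sf2, Msmo1, Nsdhl, Hsd17b7, Ebp, Dhcr7, Stard4 and Tmem97. Insig1 and Lbr aside, the calls of Aacs and Scap ended without WT chow replicate 3, WT WD replicate 1 or WT WD replicate 3, those of Mvd and Srebf2 without either of the latter, that of Lss without WT WD replicate 3, and that of Fdps without it or WT chow replicate 3. In the same comparison 9 of 14 hepatocyte markers fell, while 11 of 12 macrophage markers and 9 of 11 fibroblast markers rose. Their part in the falls was not tested further.

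In the livers labelled KO fewer members passed on WD, 9 lower and none higher, where 0.271% of all genes fell and 0.150% rose. At an unadjusted p under 0.05 in limma 20 members were lower and 2 higher, against 24 lower and 0 higher in the livers labelled WT. The counts that passed are therefore no measure of a weaker response in KO. The difference between the genotypes in this response, given below, was called for no member in limma. The median change over the 29 members was -1.19, against 0.01 over all genes, and in 21 members every WD liver was below every chow liver, against 12.5% of all genes. Sqle was at 41.9, 19.03 and 23.7 FPKM in KO chow and 0.544, 0.768 and 0.599 in KO WD livers and fell by 4.08 ± 0.38 (SE) (adjusted p = 0.00149). Idi1 went from 51.7, 30.98 and 32.8 to 1.83, 2.24 and 2.14 FPKM and fell by 3.65 ± 0.44 (SE) (adjusted p = 0.00611). Cyp51, at 75.2, 49.7 and 39.4 on chow and 6.77, 6.29 and 7.52 on WD, fell by 2.78 ± 0.39 (SE) (adjusted p = 0.0149). The remaining members called were Pmvk (-1.94 ± 0.34 (SE)), Msmo1 (-2.91 ± 0.31 (SE)), Nsdhl (-2.45 ± 0.31 (SE)), Tm7sf2 (-1.82 ± 0.16 (SE)), Lbr (-0.87 ± 0.09 (SE)) and Tmem97 (-1.17 ± 0.18 (SE)). These 9 genes were also among the 23 that fell in the livers labelled WT.

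Other members were lower in every WD liver labelled KO without passing. Mvd went from 28.6, 10.3 and 12.5 to 1.71, 1.94 and 2.15 FPKM, a change of -2.50 ± 0.49 (SE) (adjusted p = 0.0714). Dhcr7 (-1.503 ± 0.38 (SE)), Fdps (-1.60 ± 0.39 (SE)), Mvk (-1.48 ± 0.28 (SE)) and Lss (-1.44 ± 0.45 (SE)) likewise did not pass. Ebp overlapped between diets, at 102, 108 and 82.3 FPKM on chow and 79.99, 90.7 and 90.7 on WD, and so did Scap, at 19.5, 16.9 and 13.95 and 18.96, 17.8 and 17.9. Insig2 was at 39.5, 34.3 and 26.7 FPKM on chow and 127, 61.6 and 174 on WD, every WD liver above every chow liver, with a difference of 1.71 ± 0.54 (SE) (adjusted p = 0.188). DESeq2 on the reads recovered from the FPKM called 20 members lower and 2 higher, the latter being Insig2 and Mbtps1, and centring on the hepatocyte markers gave 11 lower and 2 higher. Without KO chow replicate 1, the library with pancreatic markers, 6 members were called, as without KO chow replicate 2, KO WD replicate 1 or KO WD replicate 3. The call of Pmvk held in 0 of the 6 runs that left out 1 library (adjusted p = 0.0792 to 0.139), that of Tmem97 in 1 and that of Cyp51 in 2, while Msmo1, Idi1, Nsdhl, Tm7sf2, Sqle and Lbr were called in all 6. The summed hepatocyte markers were 69038 to 75017 FPKM on chow and 43431 to 51024 on WD in these livers. By the mean log2(FPKM + 1) of the markers they were at 10.81 to 11.11 on chow and 10.57 to 10.65 on WD. The livers labelled WT were at 10.65 to 10.89 and 9.77 to 10.06 by that mean. The part of these markers in the result was not tested further.

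**Figure D2:**
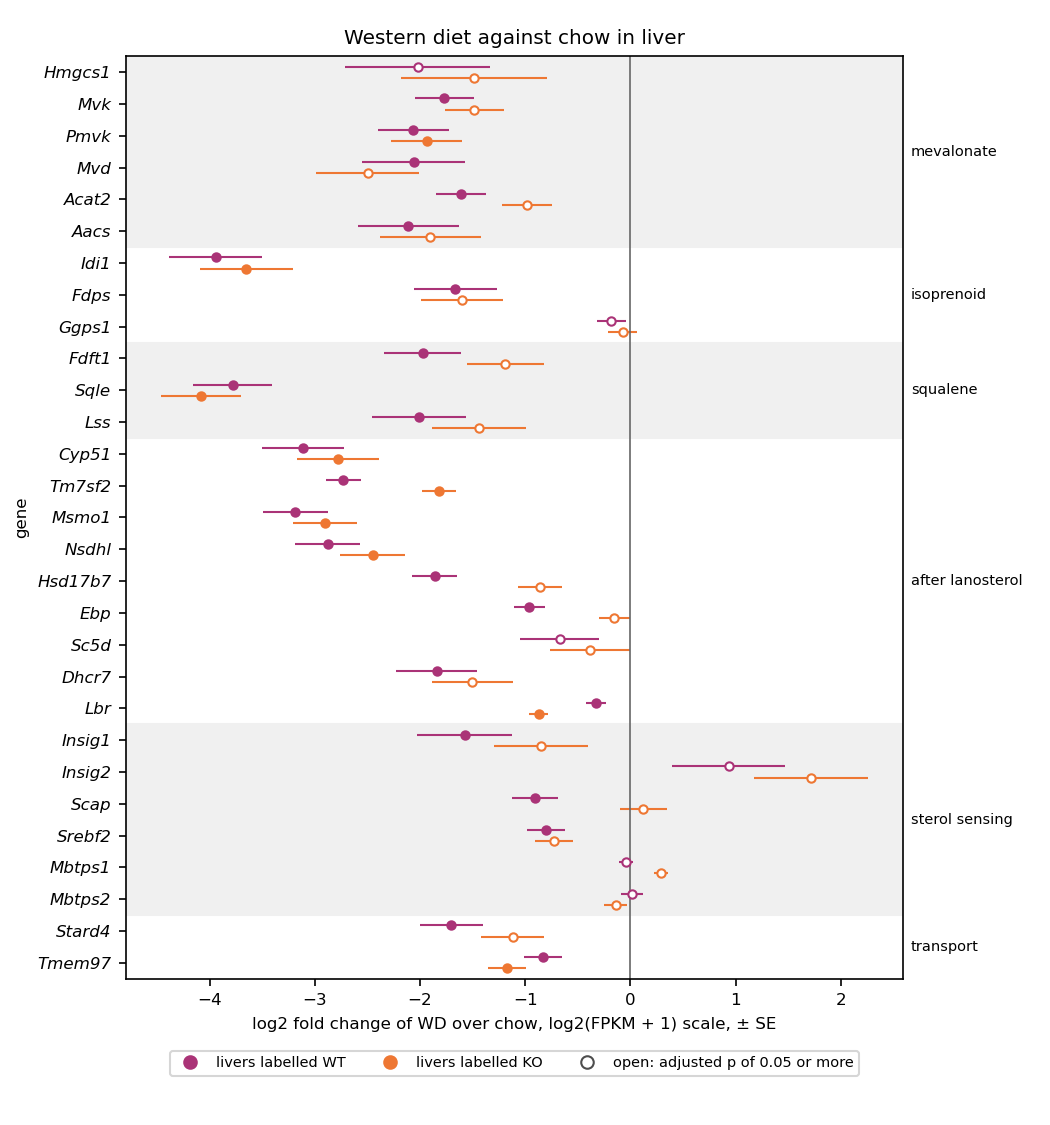
Log2 fold change of WD over chow ± SE for each of the 29 members in the livers labelled WT and KO; filled points passed at an adjusted p under 0.05. Sqle and Idi1 lie farthest to the left in both genotypes, and Insig2 lies right of 0 in both without passing.

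Between the genotype labels on WD, the liver pathway differed in 6 genes. Of 29 members 5 were higher and 1 was lower in the livers labelled KO, where 10.6% and 10.4% of all genes were called in those directions, so the share of members called was near that of all genes. In 7 members every liver labelled KO was above every liver labelled WT and in 3 every one was below, against 25.4% and 17.5% of all genes. The median difference over the members was 0.08, against 0.07 over all genes. Tm7sf2 was at 4.61, 4.97 and 3.06 FPKM in WD livers labelled WT and 9.74, 9.33 and 10.5 in those labelled KO, higher by 1.08 ± 0.16 (SE) on the log2 scale (adjusted p = 0.00301). Hsd17b7 was at 5.98, 8.92 and 4.76 and 13.7, 14.3 and 13.4 FPKM, higher by 1.01 ± 0.21 (SE) (adjusted p = 0.00989). Ebp was at 49.5, 53.3 and 47.9 and 79.99, 90.7 and 90.7 FPKM, higher by 0.78 ± 0.15 (SE) (adjusted p = 0.0065). These 3 enzymes after lanosterol had no overlap between the labels and passed in each of the 6 runs that left out 1 library.

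Scap, the escort of SREBP2, was at 10.2, 11.2 and 10.8 FPKM in WD livers labelled WT and 18.96, 17.8 and 17.9 in those labelled KO. Its difference of 0.71 ± 0.22 (SE) (adjusted p = 0.0455) had no overlap, but the call ended without any 1 of the 6 libraries, where the adjusted p was 0.0731 to 0.137. Mbtps1, the site-1 protease, was at 8.53, 8.88 and 8.72 and 11.03, 10.5 and 10.6 FPKM, higher by 0.27 ± 0.07 (SE) (adjusted p = 0.0175), but with reads scaled to the library total in place of the deposited scaling its difference turned to -0.03. Its call also ended without WT WD replicate 1, WT WD replicate 3 or KO WD replicate 1, with quantile normalization and in edgeR. Lbr was lower, at 3.32, 3.11 and 2.9998 and 2.20, 2.39 and 1.88 FPKM, with a difference of -0.40 ± 0.09 (SE) (adjusted p = 0.0151), and its call ended without WT WD replicate 1 or KO WD replicate 3. Stard4, at 13.4, 15.4 and 8.12 and 22.5, 23.96 and 20.7 FPKM, had no overlap and did not pass (0.86 ± 0.30 (SE) (adjusted p = 0.067)). The genes with the largest falls on WD were not called between the labels: Sqle was at 1.63, 1.25 and 1.07 and 0.544, 0.768 and 0.599 FPKM, lower without overlap in the livers labelled KO (-0.50 ± 0.38 (SE) (adjusted p = 0.39)), and Idi1 overlapped (-0.09 ± 0.44 (SE)). The authors' deposited table of the same livers gave Sqle a log2 fold change of -1.08 with an adjusted p of 0.00354 (DESeq2). That value is from read counts, while the -0.50 is on the log2(FPKM + 1) scale, which understates the change of a gene this low. On the recovered reads Sqle was at an unadjusted p under 0.05 in both edgeR and DESeq2. The authors' table also passed Stard4 (0.00212), Fdft1 (0.0329) and Mvd (0.0471). The authors' deposited table did not pass Mbtps1 (0.0685).

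The opposite directions of Tm7sf2 and Lbr showed in their ratio. It was 1.39, 1.60 and 1.02 in the WD livers labelled WT and 4.43, 3.90 and 5.61 in those labelled KO, against 6.57 to 8.86 and 7.17 to 8.998 in WT and KO chow livers. The 2 chow groups overlapped, the KO WD livers lay below them, and the WT WD livers lay below the KO WD livers, without overlap. Between the 2 WD groups this follows from the 2 genes, each without overlap and in opposite directions, and is no separate result. The hepatocyte, macrophage and fibroblast markers also separated these 2 WD groups, 7 of 14 hepatocyte markers being higher and 9 of 12 macrophage and 9 of 11 fibroblast markers lower in the livers labelled KO. When each library was centred on the hepatocyte markers, none of the members was higher and 10 were lower in the livers labelled KO (median of all genes -0.61). There Tm7sf2 was at 0.40, Hsd17b7 at 0.33, Ebp at 0.10 and Scap at 0.03, none of them called. With reads scaled to the library total the split was 3 higher and 2 lower and the median of all genes -0.17.

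The difference between the genotypes in their response to WD was not called for any member in liver (limma; 6 members at an unadjusted p under 0.05; 0.549% of all genes called). edgeR on the recovered reads called 0 members and DESeq2 called 4. The 6 members at an unadjusted p under 0.05 were Mbtps1 (0.33 ± 0.09 (SE) (adjusted p = 0.142)), Scap (1.03 ± 0.31 (SE) (adjusted p = 0.164)), Hsd17b7 (1.0002 ± 0.30 (SE) (adjusted p = 0.161)), Tm7sf2 (0.91 ± 0.23 (SE) (adjusted p = 0.116)) and Ebp (0.81 ± 0.21 (SE) (adjusted p = 0.118)), with values above 0, and Lbr (-0.55 ± 0.13 (SE) (adjusted p = 0.104)), which fell more in KO. Fdft1 (0.79 ± 0.52 (SE) (adjusted p = 0.478)), Insig2 (0.78 ± 0.77 (SE) (adjusted p = 0.649)) and Insig1 (0.73 ± 0.63 (SE) (adjusted p = 0.601)) had differences of like size with wider errors. Without WT chow replicate 2 the test called 2 members and without WT WD replicate 2 it called 1. The WD comparison in WT and the genotype comparison on WD share the 3 WT WD libraries, so their values stand side by side and were not set against each other.

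**Figure D3:**
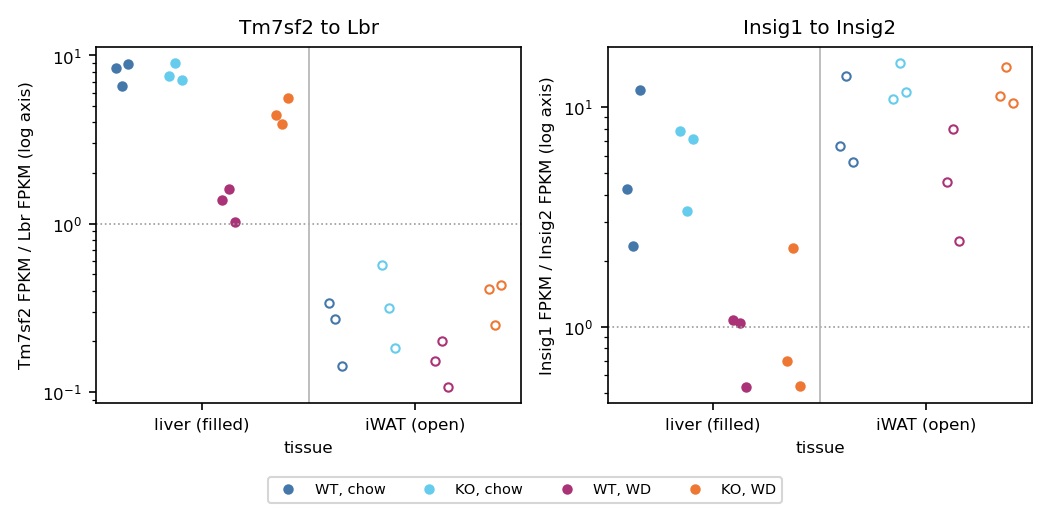
Ratios of FPKM for 2 pairs of genes with overlapping function, Tm7sf2 to Lbr on the left and Insig1 to Insig2 on the right, 1 point a library on log axes, liver filled and iWAT open. In liver the Tm7sf2 to Lbr ratio is lowest in WT WD, at 1.02 to 1.60, and the Insig1 to Insig2 ratio is lower in both WD groups than in both chow groups.

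On chow no difference between the genotypes was detected in liver. No member passed in limma, edgeR or DESeq2, and none reached an unadjusted p under 0.05 in any of the 3. Of all 14019 genes 0% passed in limma, 0 in edgeR and 16 in DESeq2, 4 higher and 12 lower in KO. Every KO value was above every WT value in 1 member (Lbr) and below in 0, against 4.59% and 4.34% of all genes. The median difference of the members was -0.15, against 0.0050 over all genes. The spread of the chow livers was wide. Hmgcs1, for example, was at 289.9, 62.3 and 32.1 FPKM in WT and 95.7, 42.1 and 39.9 in KO livers. In each genotype replicate 1 was the highest, and a change in such a gene smaller than the spread could not be seen here.

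In iWAT few members responded to WD. Of the 28 members tested, Fdps being below the limit of a mean of 0.5 FPKM, 2 fell and none rose in WT, where 0.769% of all genes fell and 1.36% rose (2.12% in either direction), and the median change was -0.18. Aacs was at 77.7, 149 and 68.3 FPKM in WT on chow and 26.8, 36.95 and 19.7 on WD, a fall of 1.74 ± 0.30 (SE) (adjusted p = 0.0223). Fdft1 was at 12.4, 21.3 and 16.6 and 7.55, 8.52 and 7.33 FPKM, a fall of 0.98 ± 0.18 (SE) (adjusted p = 0.0278). Ctsb, which overlaps Fdft1, was at 175 to 239 and 218 to 355 FPKM in these groups. Both members were below their chow values in every WD library. Neither passed in the fit of these 2 groups alone. The call of Aacs ended without WT chow replicate 2, WT WD replicate 2 or WT WD replicate 3, and that of Fdft1 ended without any 1 library except WT chow replicate 1. Median-of-ratios, quantile and library-total scaling each gave 1 member higher and 2 lower, and centring on the adipocyte markers 2 higher and 1 lower.

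Hmgcs1 was higher on WD than on chow in iWAT of both genotypes, without passing. It was at 28.7, 22.1 and 13.01 FPKM in WT on chow and 43.9, 71.4 and 53.6 on WD, every WD value above every chow value, with a difference of 1.40 ± 0.32 (SE) (adjusted p = 0.0533). In KO it was at 33.8, 39.4 and 26.8 and 92.1, 54.04 and 98.3 FPKM, again without overlap, with a difference of 1.23 ± 0.32 (SE) (adjusted p = 0.334). On the recovered reads the difference in WT had an adjusted p of 0.0471 in edgeR and 0.000359 in DESeq2. Ebp and Tmem97 were also higher on WD without overlap in WT, with differences of 0.11 ± 0.08 (SE) (adjusted p = 0.434) and 0.39 ± 0.14 (SE) (adjusted p = 0.169). In all, 3 members were higher and 3 lower on WD without overlap in WT, against 15.5% and 11.8% of all genes. Sqle, at 1.61 to 3.61 and 1.55 to 2.87 FPKM, and Idi1, at 3.14 to 4.47 and 2.57 to 4.62, overlapped between diets.

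In KO iWAT no member passed between diets in limma (3 at an unadjusted p under 0.05; 0% of all genes passed), edgeR called 0 and DESeq2 called 1 higher and 1 lower. The diets did not overlap in 1 member higher on WD, Hmgcs1, and 3 lower, Fdft1, Msmo1 and Aacs, against 8.63% and 6.45% of all genes. In WT iWAT the sums of the skeletal muscle markers did not overlap between diets, being 31.97 to 154 FPKM on chow and 158 to 4091 on WD, while in KO they overlapped, at 16.05 to 89.1 and 23.4 to 1208. The sums of the lymphocyte markers overlapped between diets, at 477 to 989 and 143 to 657 in WT and 212 to 1003 and 216 to 696 in KO. Both readings for WT turned with the measure. By the mean log2(FPKM + 1) of the markers, the lymphocyte set did not overlap in WT. It was at 2.94 to 4.94 on chow and 1.62 to 2.83 on WD. By that mean the muscle set did overlap in WT, as WT WD replicate 3 was below WT chow replicate 2. In KO both sets overlapped by that mean too. The part of either set in the values of Aacs, Fdft1 and Hmgcs1 was not tested.

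On WD the KO iWAT had more of some members. Of 28 members 2 were higher and none was lower than in WT, where 3.20% of all genes were higher and 1.05% lower, and the median difference was 0.13. Aacs was at 26.8, 36.95 and 19.7 FPKM in WT and 65.4, 72.3 and 59.8 in KO on WD, higher by 1.26 ± 0.30 (SE) (adjusted p = 0.0469). Nsdhl was at 7.96, 9.28 and 6.07 and 14.4, 15.7 and 21.2 FPKM, higher by 1.04 ± 0.24 (SE) (adjusted p = 0.045). Both were apart in all 6 libraries, yet each call ended when any 1 of them was left out, in the fit of these 2 groups alone and without the filter on low values. In 9 members every KO library was above every WT library, against 12.7% of all genes. In 1, Ebp, every KO library was below, at 9.96 to 10.5 against 10.7 to 11.3 FPKM, where 12.3% of all genes were, and its difference of -0.11 ± 0.08 (SE) (adjusted p = 0.527) was opposite in sign to that in liver.

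Among those 9 without a call, Insig1 was at 53.6, 109 and 32.1 FPKM in WT and 127, 160.4 and 156 in KO (1.34 ± 0.43 (SE) (adjusted p = 0.121)). Tm7sf2, low in this tissue, was at 0.751, 0.879 and 0.475 and 1.60, 1.28 and 1.90 FPKM (0.61 ± 0.17 (SE) (adjusted p = 0.0727)), the same sign as in liver. Pmvk (0.86 ± 0.28 (SE) (adjusted p = 0.126)) and Lss (0.65 ± 0.19 (SE) (adjusted p = 0.0839)) were in the same position. The authors' deposited table of this comparison gave adjusted p-values of 2.16e-05 for Aacs, 3.82e-05 for Nsdhl, 0.00309 for Tm7sf2, 0.00874 for Pmvk, 0.00151 for Lss and 0.0255 for Insig1, and DESeq2 on the recovered reads called 6 members here. Centring on the adipocyte markers gave 2 higher and 2 lower. Brown adipocyte markers, 6 of 6 without overlap and 5 of them called, were higher in the same KO libraries, with sums of 446 to 1441 FPKM against 12.1 to 119 in WT, and also on chow, at 464 to 632 against 95.4 to 106, where no member was called. Mitochondrial reads were 5.27 to 11.6% of the KO and 2.49 to 3.42% of the WT libraries on WD, and 5.85 to 6.56% and 3.54 to 4.63% on chow. The part of either in the result was not tested.

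On chow no member was called by genotype in iWAT in limma, edgeR or DESeq2, with none at an unadjusted p under 0.05 in limma or edgeR, and 1 in DESeq2 (Hmgcs1). Of all 14685 genes 0% were called in limma, 0 in edgeR and, in DESeq2, 62 higher and 8 lower in KO. The genotypes did not overlap in 0 members higher and 0 lower in KO, against 5.86% and 4.95% of all genes. The difference in WD response between the genotypes was called for no member (1 at an unadjusted p under 0.05, Aacs at 1.09 ± 0.42 (SE) (adjusted p = 0.669); 0% of all genes called in limma; edgeR and DESeq2 called 0 members each).

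**Figure D4:**
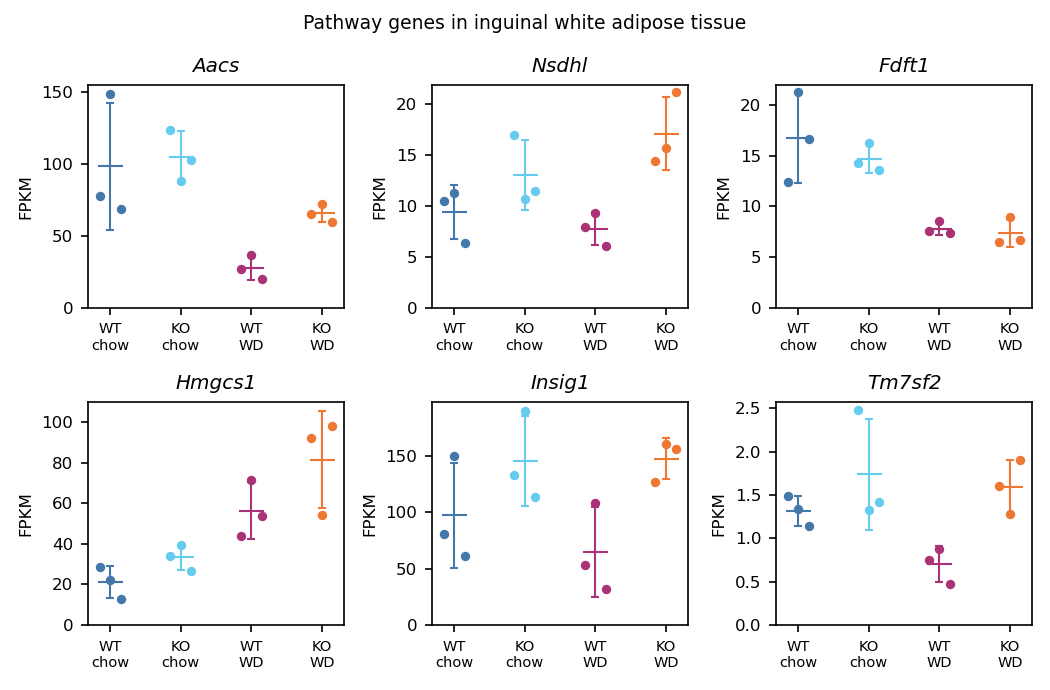
FPKM of 6 members in iWAT, 4 groups of 3 libraries each; points are libraries, the cross bar is the mean and the whiskers are ± SD. Aacs is lowest in WT on WD, at 19.7 to 36.95 FPKM, and Hmgcs1 is higher on WD than on chow in both genotypes.

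**Figure D5:**
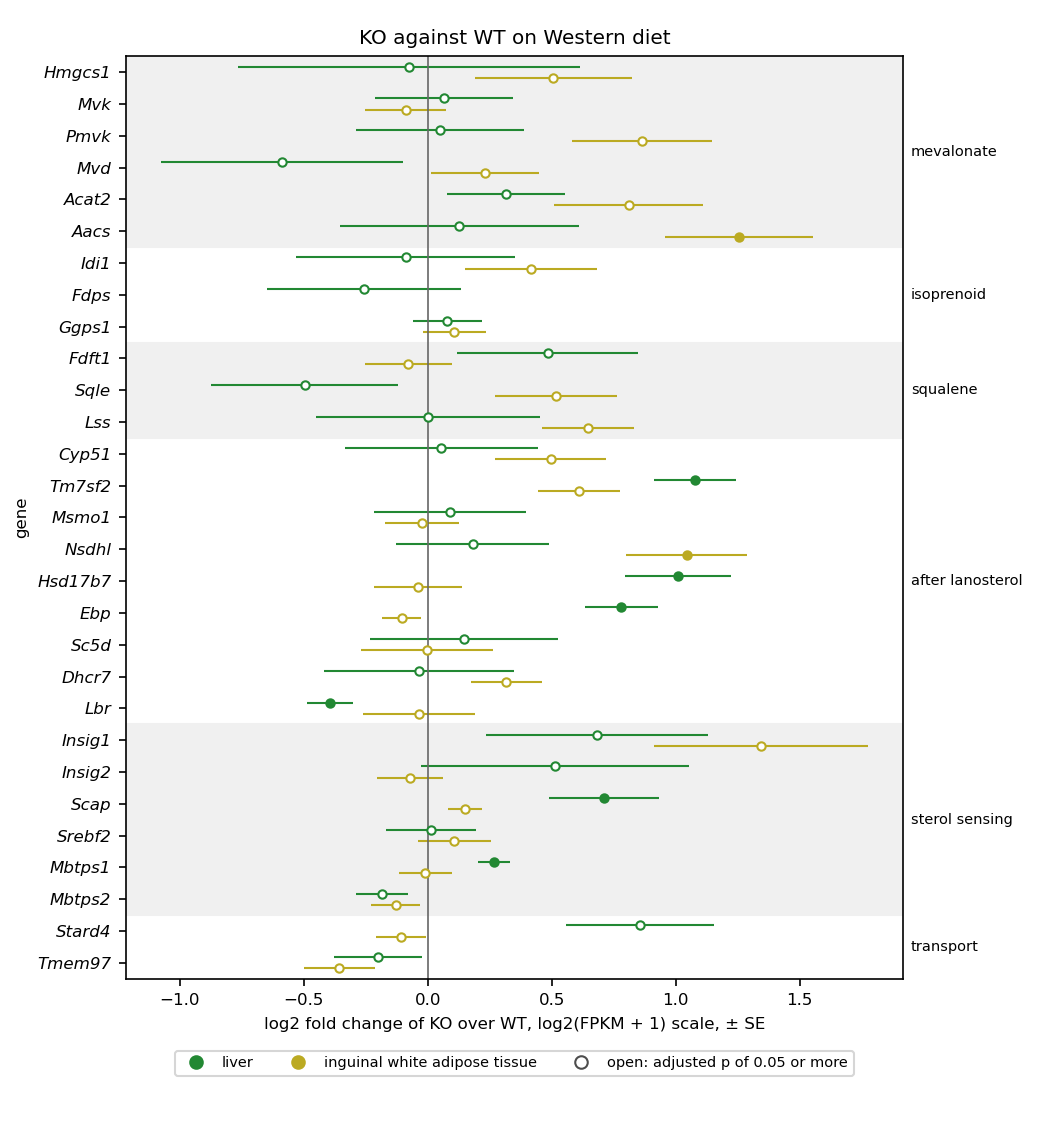
Log2 fold change of KO over WT on WD ± SE for each member in liver and in iWAT (Fdps was tested in liver alone); filled points passed at an adjusted p under 0.05. The members called in liver (Tm7sf2, Hsd17b7, Ebp, Scap, Mbtps1 and Lbr) are not those called in iWAT (Aacs and Nsdhl).

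The response to WD differed between the tissues for many members. Whether liver and iWAT libraries of equal number came from the same mouse was not stated, and they were treated as separate samples. In a joint fit of both tissues, 17 members responded more negatively in liver than in iWAT in WT and none more positively, where 5.22% and 3.23% of all genes were called (8.44% in either direction), and in KO 9 did, where 0.216% and 0.111% were. The difference in response was widest in WT for Idi1 (-3.71 ± 0.54 (SE) (adjusted p = 0.00048)), Sqle (-3.55 ± 0.47 (SE) (adjusted p = 0.000241)) and Hmgcs1 (-3.43 ± 0.80 (SE) (adjusted p = 0.0139)). For Sqle it was -4.19 ± 0.47 (SE) (adjusted p = 0.000227) in KO. Genes such as Fdft1 (-0.99 ± 0.43 (SE) (adjusted p = 0.155)) and Aacs (-0.37 ± 0.59 (SE) (adjusted p = 0.745)), which fell in both tissues of WT, were not called.

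Lists of related genes gave the surroundings of the pathway. These lists too were chosen with earlier results of these data known. As above, 9.72% of all genes rose and 9.49% fell on WD in WT liver, and 10.6% were higher and 10.4% lower in WD livers labelled KO, so counts such as 1 of 15 or 2 of 16 in these are near the share of all genes. Of 16 genes for SREBP transport and sterol-driven turnover, 4 fell and none rose on WD in WT liver, among them Sec24a, a coat protein of the vesicles that carry SCAP (-0.47 ± 0.09). In WD livers 4 of these 16 were higher in those labelled KO and none was lower, Sec24a being higher by 0.46 ± 0.09. Of 9 targets of LXR, the receptor for oxidised sterols, 4 rose and none fell on WD in WT liver, with Abcg1 at 1.96 ± 0.24, Abcg5, a subunit of the sterol exporter into bile, at 0.999 ± 0.14 and Mylip at 0.87 ± 0.19. In KO liver 2 of the 9 rose, against 0.150% of all genes, Abcg5 by 1.97 ± 0.14 and Abcg8, its partner, by 1.76 ± 0.16. Abcg1, which macrophages also express, was lower in the WD livers labelled KO (-1.05 ± 0.24) while Abcg5 (0.89 ± 0.14) and Abcg8 (1.07 ± 0.16) were higher. Of 18 tested genes for sterol storage, esterification and bile acid synthesis, 3 rose and 4 fell on WD in WT liver, with Soat1, which esterifies cholesterol, at 1.03 ± 0.19 and Gramd1b, a sterol carrier from the plasma membrane, at 1.42 ± 0.11. Between the labels on WD, Cyp7b1 of the alternative bile acid pathway was higher in KO by 2.13 ± 0.29 and Cyp27a1 by 1.05 ± 0.14, 4 of the 18 being higher and 4 lower.

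The list of lipogenic genes driven by SREBP1, the sister factor of SREBP2, held 16 tested genes. On WD in WT liver 2 of 16 fell, Acss2, which makes acetyl-CoA from acetate (-1.77 ± 0.37), and Fads1, a fatty acid desaturase (-1.23 ± 0.29). In WT iWAT 4 of 16 fell and none rose on WD, against 0.769% and 1.36% of all genes, with Elovl6 at -2.56 ± 0.34, Fasn, the fatty acid synthase, at -1.96 ± 0.37 and Acaca, the acetyl-CoA carboxylase, at -1.63 ± 0.20. In WD iWAT 6 of the 16 were higher in KO and none was lower, against 3.20% and 1.05% of all genes, with Elovl6 at 3.55 ± 0.34, Acaca at 1.79 ± 0.20 and Me1, which supplies NADPH, at 1.58 ± 0.20. The median difference of that list was 1.08, against 0.13 over the 28 members. Of 15 genes that use isoprenoids for dolichol, ubiquinone and prenylation, 1 rose and none fell on WD in WT liver, Srd5a3 by 0.50 ± 0.11. The values after each of these names are log2 fold changes ± SE from the same fits.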

How the data were processed

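RNA of 12 livers and 12 iWAT samples was sequenced as paired-end reads of poly-T selected RNA, per the labels' protocols. The submitters' processing notes name HISAT2 2.0.5 and the build mm10, with the counter and its use of strand not stated. The authors deposited FPKM and gene length per gene, and, per the file headers, tables of read counts, log2 fold changes and p-values for KO against WT, made with DESeq2 1.20.0 per their notes, that list genes with an unadjusted p under 0.05.

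The FPKM were turned back into reads with the deposited gene lengths: 540911 of 540911 values above 0 came out whole within 0.01 reads, and 64434 of 64434 deposited counts were equal. The library size behind the FPKM was 0.769 to 1.07 times the reads in liver and 1.24 to 1.60 times in iWAT. A further 56 per-sample columns were not used. Squared differences between replicates, averaged over well-covered genes, were 26.1 to 115 times counting noise. Genes with many reads can dominate this average, which was not split by read count. It therefore does not show how much depth adds to the error of members with fewer reads. Genes with few reads in a pair of libraries were left out of this average. Among them in KO WD liver were Fdps, at 11, 22 and 36 reads, and Sqle, at 38, 58 and 39.

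Log2(FPKM + 1) of genes with a mean of at least 0.5 FPKM (14019 in liver, 14685 in iWAT, 15254 jointly) was fitted with limma 3.58.1 (R 4.3.3; trend, robust prior) on the 4 groups of a tissue, or all 8 for comparisons across tissues. P-values were adjusted by Benjamini-Hochberg over all genes, and a gene was called at an adjusted p under 0.05. Alternatives were other pseudocounts, filters and scalings (reads scaled to the library total, median of ratios, quantile, centring on hepatocyte or adipocyte markers), edgeR 4.0.16 and DESeq2 1.42.0 on the reads, a replicate block, fits of the compared groups only, and leaving out each library. On simulated data 62% of 2-fold and 90% of 4-fold changes were recovered in liver for WD against chow in WT (14019 genes, 10 false calls), and 60% and 91% in iWAT (14685 genes, 7 false calls). The changed genes were drawn from those above a set mean level, and no other gene was changed. Noise was drawn gene by gene, without a deviation shared across a library. The rates therefore do not give the recovery for low members or for libraries that stand apart, as some did here. The labels do not say that equal replicate numbers pair mice. The deviations of equal-numbered libraries had all 3 correlations over 0.1 in a single comparison, KO with WT in iWAT on chow (0.184, 0.127 and 0.407), where 0 members were called with and without the block.

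All 29 members could be named. Of each related list, the 3 tested genes with the smallest p per comparison could be, and of genes with like profiles the closest 8 per tissue. The members and lists were chosen with earlier results of these data known. Ctsb and Mmab were named for their position. Promoters came from RefSeq (25 of 29 members matched; Fdft1, Sqle, Fdps and Stard4 were without an entry in the table used).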

Additional observations from a re-analysis of the deposited data

Results flagged for a closer look

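The response to WD (WD minus chow, log2(FPKM + 1) scale) was more negative in liver than in iWAT for 17 members in WT and 9 in KO at an adjusted p under 0.05 of the difference itself (limma, both tissues in 1 fit). In WT the liver response minus the iWAT response, with 3 libraries in each of the 4 groups, was -3.71 for Idi1, -3.55 for Sqle, -3.43 for Hmgcs1, -2.82 for Msmo1, -2.72 for Cyp51, -2.65 for Nsdhl, -2.27 for Tm7sf2, -2.11 for Hsd17b7, -1.94 for Lss, -1.93 for Mvk, -1.73 for Pmvk, -1.73 for Stard4, -1.71 for Dhcr7, -1.63 for Fdps, -1.22 for Tmem97, -1.07 for Ebp and -0.82 for Scap. In KO it was -4.19 for Sqle, -3.61 for Idi1, -2.82 for Nsdhl, -2.78 for Cyp51, -2.44 for Msmo1, -2.24 for Pmvk, -1.76 for Tm7sf2, -1.60 for Mvk and -1.33 for Tmem97. The widest gaps belonged to the isoprenoid and squalene enzymes Idi1 and Sqle and, in WT, to Hmgcs1. Leaving out each of the 12 libraries of a genotype in turn, 12 of the 17 members in WT were called in every run, and Dhcr7 was called in 10 of 12 runs, Fdps in 9, Pmvk and Lss in 8 each and Scap in 2. In KO 7 of the 9 were called in every run, Pmvk in 3 of 12 and Mvk in 0 of 12. Hepatocyte, macrophage and fibroblast markers moved with WD in WT liver as described above, and their part in these differences was not tested.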

How the results depend on the processing

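With 3 libraries a group, single libraries moved several counts of called members. KO against WT on WD in liver (6 called) gave 10 relative to the hepatocyte markers and 3 to 5 leaving out 1 library, 3 being without WT WD replicate 1. WD against chow in WT liver (23) gave 12 in the fit of only the groups compared and 15 to 22 leaving out 1 library. WD against chow in KO liver (9) gave 22 in DESeq2 and 6 to 8 leaving out 1 library. The genotype by diet interaction in liver (0) gave 1 scaled by recovered reads, 4 in DESeq2, 1 relative to the markers and 0 to 2 leaving out 1 library. KO against WT on WD in iWAT (2) gave 0 with no filter on low values, 1 with quantile normalization, 6 in DESeq2, 4 relative to the adipocyte markers, 0 in the fit of only the groups compared and 0 to 0 leaving out 1 library. WD against chow in WT iWAT (2) gave 1 with no filter, 4 in DESeq2, 0 in the fit of only the groups compared and 0 to 2 leaving out 1 library, and in KO iWAT (0) DESeq2 gave 2. The causes were not tested.

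A check for turned directions marked 17 cases, all under another scaling, but it did not mark every change of sign. The median difference of the members between the genotypes in chow liver went from -0.15 to 0.14 without WT chow replicate 1. In WD liver that median went from 0.08 to -0.09 without WT WD replicate 3. The 17 marked cases were as follows. For KO against WT on WD in liver Mbtps1 was -0.029 scaled by recovered reads, and relative to the markers Mbtps1 was -0.41, Srebf2 -0.67, Mvk -0.62 and Ggps1 -0.60. For WD against chow in WT liver Mbtps1 was 0.27 scaled by recovered reads, and relative to the markers Mbtps1 was 0.83, Tmem97 0.037, Srebf2 0.066, Lbr 0.54 and Ggps1 0.69. For liver against iWAT Mbtps1 was -0.22 with quantile normalization and -0.73 scaled by recovered reads, where Pmvk was -0.041, Srebf2 -0.10, Mvk -0.031 and Mbtps2 -0.41. Recovered-read scaling moved the median of all genes from -0.05 to 0.20 for WD against chow in WT liver. With the replicate number as a block, in numbers that the labels do not tie to shared animals, Scap (adjusted p = 0.0503, KO against WT on WD, liver), Tmem97 (0.0612, WD against chow in KO, liver), Nsdhl (0.0614, KO against WT on WD, iWAT) and Mvk (0.0508, WD response in KO, liver minus iWAT) were no longer called, and Insig1 (0.0324, KO against WT on WD, iWAT) was; the block changed no other member's call. Replicates differed by more than counting noise on average over well-covered genes, and the part of depth in the error of single members was not checked. A spread like that of the chow livers hides smaller changes.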

Other observations

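Acat2, the cytosolic thiolase of the mevalonate pathway, was at 0.648 to 0.679 times the FPKM of its neighbouring copy Acat3 in WT chow livers and 0.112 to 0.252 times in WT WD livers. In WT chow iWAT it was at 43.7 to 72.9 times. The split of reads between 2 such similar genes is uncertain.

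Across the 12 livers the genes closest in profile to the called members, by root mean square distance of centred log2 values, were Ropn1l (0.25), Rdh11, a retinol dehydrogenase (0.25), Acss2 (0.31), Cyp26a1, which clears retinoic acid (0.37), Mmab (0.37), Rdh16f2 (0.40), Erg28 (0.40) and Alb (0.41). Alb, a hepatocyte marker, is among them, and all 8 were chosen by a profile that holds the diet difference, so their own falls on WD are no separate evidence. Mmab, which adenosylates cobalamin, lies head to head with Mvk (chr5:114431034-114444060, minus strand, mm10), 208 bases away. Its difference on WD in liver was -1.22 ± 0.23 (SE) in WT (adjusted p = 0.00688, limma) and -0.97 ± 0.23 (SE) in KO (adjusted p = 0.119). Across the 12 iWAT libraries the closest to the members called there, Aacs and Fdft1, were Fam13a (0.21), Glul, glutamine synthetase (0.23), St3gal4 (0.26) and Nampt (0.26).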
